A study of Mus musculus with 18 samples.

Results

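Among cultures of mouse skeletal muscle cells that all had high levels of muscle genes, 3 arrays carried a very bright signal from an Illumina probe with no gene name, and 3 others did not carry it. This comparison sets the probe-bearing arrays against the plain ones across 11921 genes. The 6 arrays, of 18 in the series, were chosen by measured values on the log2 scale of normalised intensity: Ckm, the muscle creatine kinase, above 10 on both sides, and probe ILMN_1221149 above 13 on the probe-bearing side and below 5 on the plain side. These limits admit 6 plain arrays, and the plain side is 1 of 2 sets of 3 among them whose members are each other's closest arrays. The probe-bearing arrays are, by title, first Wt day 0 replicate 1, then OE day 0 replicate 2, then Wt day 3 replicate 1. The plain arrays are first KO day 0 replicate 1, then KO day 3 replicate 3, then OE day 3 replicate 1. Values of single arrays follow these orders throughout.

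Titles are mixed within each side, so neither side is a labelled condition of the study. All cultures were myoblasts, the dividing precursors of muscle fibres, from mice whose Gata4 gene is flanked by loxP sites (strain Gata4tm1.1Sad/J). Cultures titled Wt received nuclear beta-galactosidase and those titled KO received Cre recombinase, both from adenovirus, while those titled OE received mouse GATA4 from a retrovirus. Day 0 stands for growth medium, and day 3 for 3 days in a medium for differentiation. The probe-bearing side thus holds Wt titles of both days and an OE title of day 0, with no KO title. The plain side holds KO titles of both days and an OE title of day 3, with no Wt title. Every culture, Wt included, carried the floxed allele and a virus, and the labels do not say whether arrays came from separate cultures or animals.

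The arrays of both sides that are titled day 0 go against their day labels in muscle gene level. Wt day 0 replicate 1 and OE day 0 replicate 2 had Ckm levels of 11.11 and 11.21, against 11.13 on Wt day 3 replicate 1, and KO day 0 replicate 1 had 11.25, against 10.87 and 11.09 on the plain arrays titled day 3. The nearest array outside the Ckm limit had 8.05. For the probe, the nearest values of all 18 arrays were 13.36 inside the upper limit and 4.46 below it. In total 9 arrays were muscle-high and 6 carried the probe. The other plain muscle-high arrays, which the rule passes over, are Wt day 3 replicate 3 and KO day 3 replicates 1 and 2. The remaining 9 arrays had low Ckm and high Top2a, the topoisomerase of dividing cells, and are called dividing below. Between 17947 and 18590 probes were detected on the probe-bearing arrays and between 17944 and 18334 on the plain arrays, so the sides were alike in detection.

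Across all genes, arrays correlated at 0.9894 to 0.9944 within the probe-bearing side and at 0.9916 to 0.9929 within the plain side, against 0.9718 to 0.9770 between the sides. The plain side was closer to the other plain muscle-high arrays, at 0.9831 to 0.9884. Likeness across genes was part of the choice of the plain side, so its correlations were selected for. Since the arrays of a side were picked on these measurements, everything below is a description with no test. A gene is counted as higher or lower where the means of the sides differed by at least 1 on the log2 scale, which is 2-fold, and the ranges of the sides did not overlap.

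By that rule 221 genes were higher on the probe-bearing arrays and 270 lower, which is 1.85% and 2.26% of the genes measured. The counts of each list below are to be read beside these shares. The median difference of all genes was -0.01, and 11430 genes differed by less than 1. A difference of at least 4-fold without overlap was met by 39 higher and 23 lower genes. The genes that stood out on the probe-bearing side were led by the actin-severing protein scinderin and by interferon-stimulated genes, while those that stood out on the plain side were led by an elongation factor of mature muscle, a prostaglandin-degrading enzyme, an uncharacterised RIKEN gene, a glutamate transporter and a vasopressin receptor. Core muscle, cell cycle and ribosomal genes had nearly the same levels on both sides.

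The selecting probe was not alone. ILMN_1221149 had raw intensities of 10172, 12148 and 10765 units on the probe-bearing arrays and of 93.6, 92.0 and 93.3 units on the plain arrays, where it was not detected. ILMN_2473811 had log2 levels of 13.56, 13.68 and 13.55, against 4.28, 4.19 and 4.28. ILMN_1245887 had 13.34, 13.65 and 13.33, against 4.32, 4.27 and 4.39. By background-corrected levels these 3 probes were at least 427-fold, 468-fold and 419-fold higher on the probe-bearing arrays. Such a bound is used wherever a probe was not detected on any array of the lower side. It sets the mean of the higher side against the weakest signal still detected on each array of the lower side. The bound holds for background-corrected levels alone, and the raw intensities above, with no background removed, differ by less. The same 3 probes lay between 13.28 and 13.79 on the dividing arrays that carry them, OE day 0 replicates 1 and 3 and OE day 3 replicate 2. They lay at or below 5.04 on the 12 arrays without the probe. The annotation used here gives no gene for any of them, so no transcript is named. Of 3326 detected probes without a symbol, 40 were higher and 42 lower, and the lowest differences were -2.55 for ILMN_2654624, -2.21 for ILMN_2728134 and -2.16 for ILMN_2452484.

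**Figure D1:**
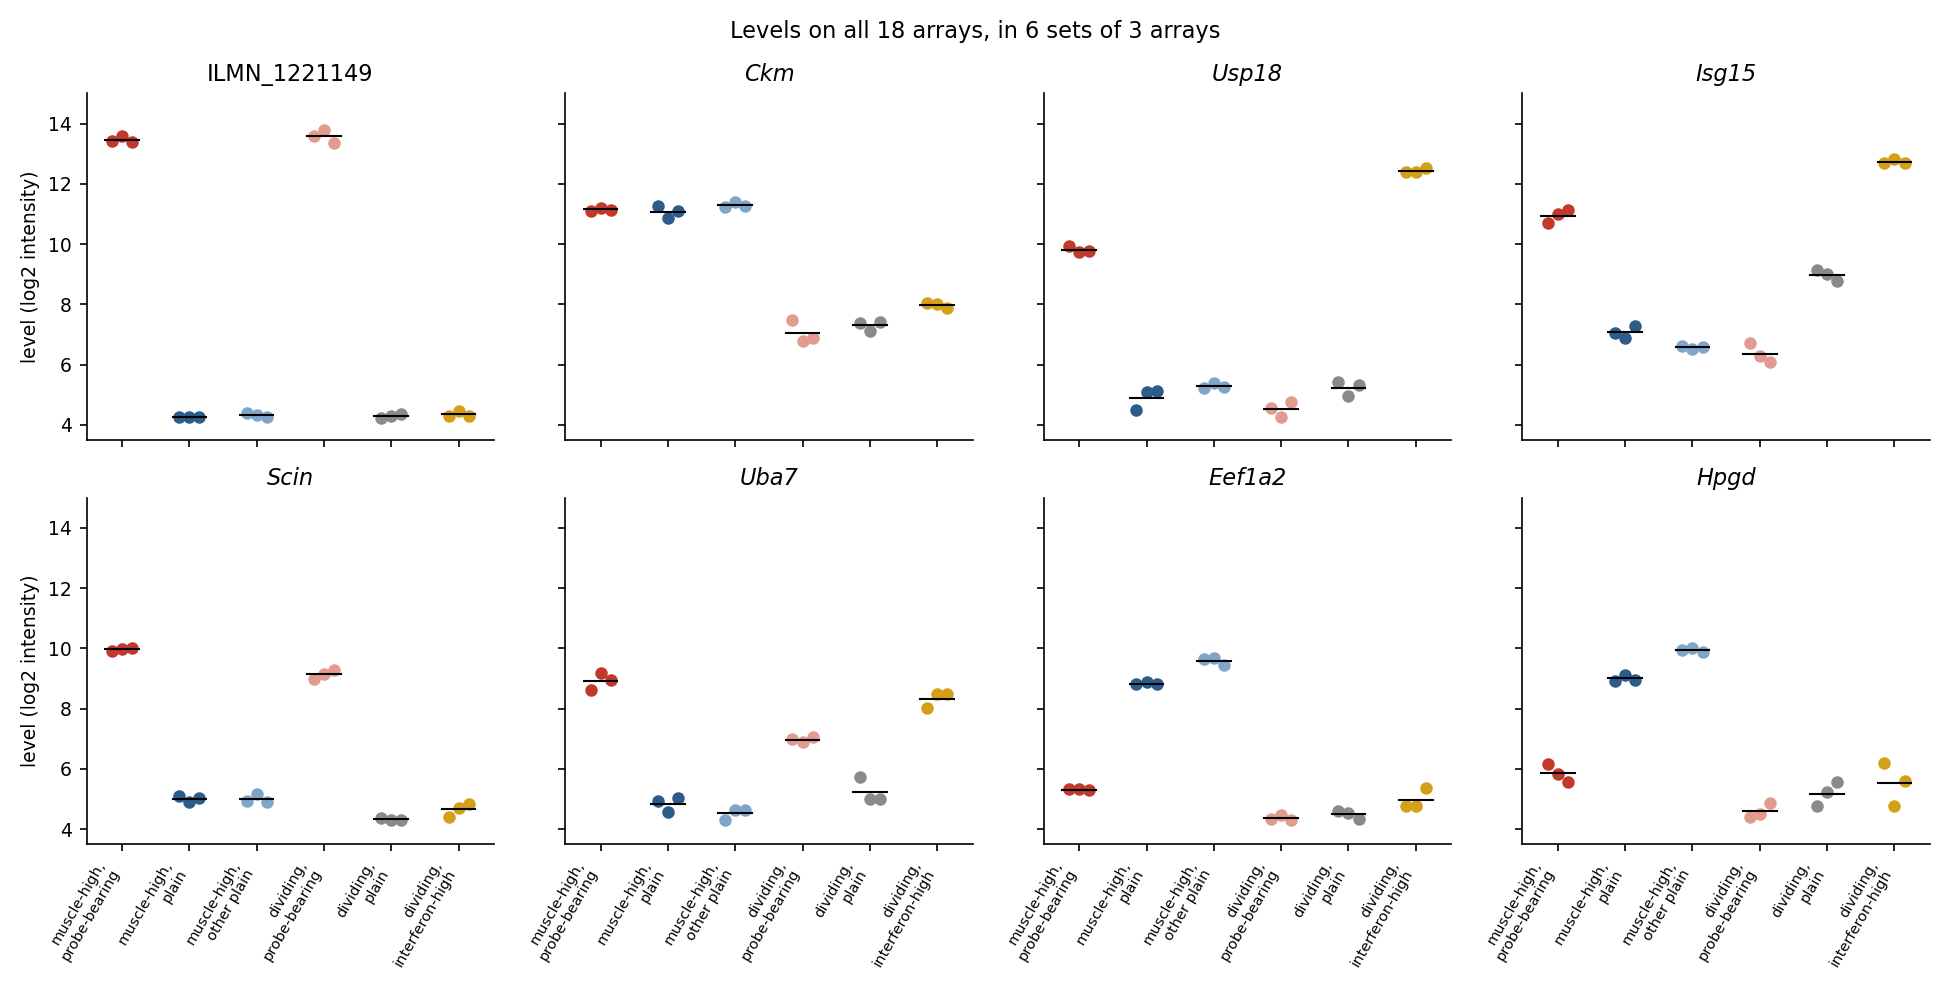
Each panel gives the log2 intensity of 1 probe or gene (vertical axis) on all 18 arrays, as points, in 6 sets of 3 arrays with their mean as a line. The unnamed probe parts both probe-bearing sets from the rest, and Ckm parts muscle-high from dividing sets. Usp18 lies between 9.72 and 9.94 on the muscle-high probe-bearing arrays and above 12 on the interferon-high dividing arrays only. The sets were formed by the probe, Ckm and, for the interferon-high set, high Usp18, so those separations were fixed by the choice.

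Gata4, the gene targeted in the study, was close to background on both sides. Its probe had levels of 5.32, 4.74 and 4.27 on the probe-bearing arrays, against 4.24, 4.38 and 4.48 on the plain arrays, with overlapping ranges and detection on 2 and 0 arrays. It does not check the labels at this signal. Among the 5 measured GATA and FOG factors, Gata3 was the lower one, at 5.77, 5.22 and 4.98, against 7.13, 7.35 and 7.34. Zfpm2, the GATA cofactor FOG2, had 7.05, 6.63 and 6.63, against 7.61, 8.04 and 7.65, which falls just short of the 2-fold rule. Gata2 had a difference of -0.32 and Gata6 of -0.22.

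Interferons are secreted signals that cells release on sensing viral or misplaced nucleic acid. Their receptors act through transcription factors that bind an element in the promoters of interferon-stimulated genes and switch on proteins that block viral replication. ISG15 is a ubiquitin-like product of this program: UBA7 activates it, UBE2L6 carries it onto target proteins, and USP18 removes it and also restrains the receptor.

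The promoters of some interferon-inducible genes are shown as background, and a part of the element in the differences was not tested. The element was searched as GAAANNGAAA on both strands of RefSeq windows of 300 bases around the gene start (250 before, 50 after, mouse GRCm38.p6). Capitals in the 200 bases before each start mark every match, and matches may overlap. Isg15 (chr4:156200819-156201018, minus strand) has 3 overlapping matches, whose first bases lie between 66 and 78 bases before its start. Ifit3 (chr19:34583329-34583528, plus strand) has 2 on the opposite strand. Gbp3 (chr3:142559844-142560043, plus strand) has 2 overlapping ones on the opposite strand, and B2m (chr2:122147487-122147686, plus strand), an interferon-inducible gene that was not higher, has 1.
Isg15: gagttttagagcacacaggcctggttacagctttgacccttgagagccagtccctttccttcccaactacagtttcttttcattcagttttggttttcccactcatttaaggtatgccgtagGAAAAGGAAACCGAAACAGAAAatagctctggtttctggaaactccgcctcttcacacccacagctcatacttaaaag
Ifit3: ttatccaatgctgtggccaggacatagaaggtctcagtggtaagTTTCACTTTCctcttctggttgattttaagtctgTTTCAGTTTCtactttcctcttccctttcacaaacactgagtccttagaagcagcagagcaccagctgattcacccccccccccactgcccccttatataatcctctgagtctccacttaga
Gbp3: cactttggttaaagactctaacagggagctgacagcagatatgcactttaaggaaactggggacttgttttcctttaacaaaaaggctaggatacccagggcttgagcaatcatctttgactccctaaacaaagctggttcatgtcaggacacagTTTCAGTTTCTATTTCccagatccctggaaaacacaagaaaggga
B2m: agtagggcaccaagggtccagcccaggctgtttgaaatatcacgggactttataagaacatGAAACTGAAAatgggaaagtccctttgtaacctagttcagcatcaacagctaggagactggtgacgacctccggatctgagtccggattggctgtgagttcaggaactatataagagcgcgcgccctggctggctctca

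The letters GAAANNGAAA occurred in 22 of the 167 higher genes with a promoter in the RefSeq table (13.2%), in 11 of 209 lower genes (5.26%) and in 346 of 9636 measured genes (3.59%). Over all 27025 promoters of the table the share was 3.99%. Among antiviral effectors 5 of the 12 higher genes with a promoter had a match, and so did 4 of the 13 that were not higher. Of the interferon-inducible GTPases, 6 of 7 had a match, Irgm1 and Gbp7 among them, which were not counted as higher. A match says only that these letters are present.

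Of 36 measured antiviral effectors, 16 (44.4%, against 1.85% of all genes) were higher on the probe-bearing arrays and 0 lower, and 34 had a positive difference. Their median difference was 0.92, against -0.01 over all genes, and the mean level of the list lay between 7.39 and 7.43 on the probe-bearing arrays and between 6.19 and 6.26 on the plain arrays. Members of the ISG15 system differed most. Isg15 had 10.71, 11 and 11.14, against 7.06, 6.88 and 7.29, a difference of 3.87 or 14.6-fold. Usp18, the protease that strips ISG15, had 9.94, 9.72 and 9.77, against 4.48, 5.08 and 5.11, a difference of 4.92, and its second probe differed by 3.12. All arrays of the probe-bearing side stood above all plain arrays for both genes.

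The enzymes that attach ISG15 were as clearly apart. Uba7, the activating enzyme, had 8.63, 9.20 and 8.94 on the probe-bearing arrays, against 4.93, 4.58 and 5.02 on the plain arrays. Ube2l6, the conjugating enzyme, had 8.70, 8.59 and 8.62, against 5.75, 5.93 and 5.50, and its 2 probes gave 2.82 and 2.91. Activation, conjugation, removal and the modifier itself were thus all higher, by 2.91 to 4.92.

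Other effectors covered several ways of acting on viruses. Ifit3, which belongs to a family of proteins that bind foreign RNA, had 9.25, 9.08 and 9.17, against 5.63, 5.68 and 6.05. Oasl2, a relative of the oligoadenylate synthetases, had 7.81, 8.22 and 7.77, against 4.52, 4.42 and 5.13, although its 3 probes ranged from -0.02 to 3.24. Lgals3bp, a secreted glycoprotein that binds galectins, had 9.15, 8.99 and 8.89, against 6.08, 5.95 and 6.12. Bst2, which tethers budding virus to the cell surface, had 8.05, 9.09 and 8.66, against 6.63, 6.38 and 6.09, the widest spread within the probe-bearing side among these genes. Its difference of 2.24 was 0.88 against the other plain muscle-high arrays. Apol9b, an interferon-inducible apolipoprotein L gene, had 7.86, 7.70 and 7.84, against 4.91, 5.09 and 4.99, but its sequence is close to that of Apol9a and the probes may not tell them apart.

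The members in this paragraph were chosen for naming after their values were seen. The other higher effectors were Mx2, Ifitm1, Parp14, Ifitm3, Cmpk2, Dtx3l, Ifi27, Oasl1, Samd9l and Rsad2, which differed by 1.02 to 2.12. Ifitm3, which blocks virus entry at endosomes, was abundant on both sides, at 12.73, 12.41 and 12.43, against 10.69, 10.76 and 10.68. Rsad2, the antiviral enzyme viperin, had 8.95, 8.92 and 8.86, against 7.74, 8.0 and 7.93. Not every effector differed: Zbp1, Oas1b, Oas1g, Oas2, Mx1, Rtp4, Epsti1 and Znfx1 overlapped or lay near background on both sides, and Lgals9 was 0.59 lower with overlap.

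Interferon-inducible GTPases, which attack the membranes around intracellular pathogens, had a median difference of 1.12 over 8 measured genes. Of these, 4 were higher and 0 lower. Gbp3 had 8.06, 7.92 and 7.73, against 5.41, 5.31 and 5.24. Gbp2 had 7.49, 7.72 and 7.64, against 5.93, 6.17 and 6.30. The immunity-related GTPases Irgm2 and Igtp differed by 1.41 and 1.33, and Igtp by 0.73 against the other plain muscle-high arrays, where the difference of Gbp2 was larger, at 2.61. Irgm1, also named after its values were seen, was the exception, at 12.06, 12.37 and 12.34, against 13.07, 12.71 and 12.73, yet its 3 probes ranged from -0.58 to 1.69, so its direction depends on the probe.

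Few of the genes that sense nucleic acid or carry the interferon signal differed. Of 23 measured, 3 were higher and 0 lower, and the median was 0.02. Irf7, the factor that amplifies interferon production, had 6.94, 6.96 and 6.99 on the probe-bearing arrays and was not detected on any plain array, which makes it at least 4.70-fold higher. Irf9, the DNA-binding part of the interferon-activated complex, had 7.63, 7.65 and 7.74, against 6.02, 5.78 and 6.10. Stat2, its partner, had 5.86, 5.94 and 5.95, against 4.77, 4.50 and 5.03. The RNA sensor Ddx58 had 5.84, 5.55 and 5.85, against 5.16, 4.72 and 5.05, a difference of 0.77. Ifnb1, the beta interferon gene, was not detected on any of the 6 arrays.

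MHC class I genes, which display peptides to T cells and are themselves inducible by interferon, did not share the direction of the antiviral effectors. Of 19 measured, 0 were higher and 1 lower, with a median of 0.08. H2-D1, a classical class I heavy chain, had 8.95, 8.67 and 8.80, against 9.83, 9.82 and 9.96, while its 3 probes ranged from -1.06 to -0.18 and its difference from the other plain muscle-high arrays was -1.65. B2m, the shared light chain, had 11.92, 11.96 and 11.89, against 12.70, 12.87 and 12.56, so all probe-bearing arrays lay below all plain arrays. H2-K1 differed by -0.77. The non-classical gene H2-T23 went the other way, at 8.81, 8.79 and 8.86, against 7.98, 7.89 and 8.22, and the proteasome activator Psme2 had 8.41, 7.90 and 8.15, against 7.42, 7.59 and 7.44.

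**Figure D2:**
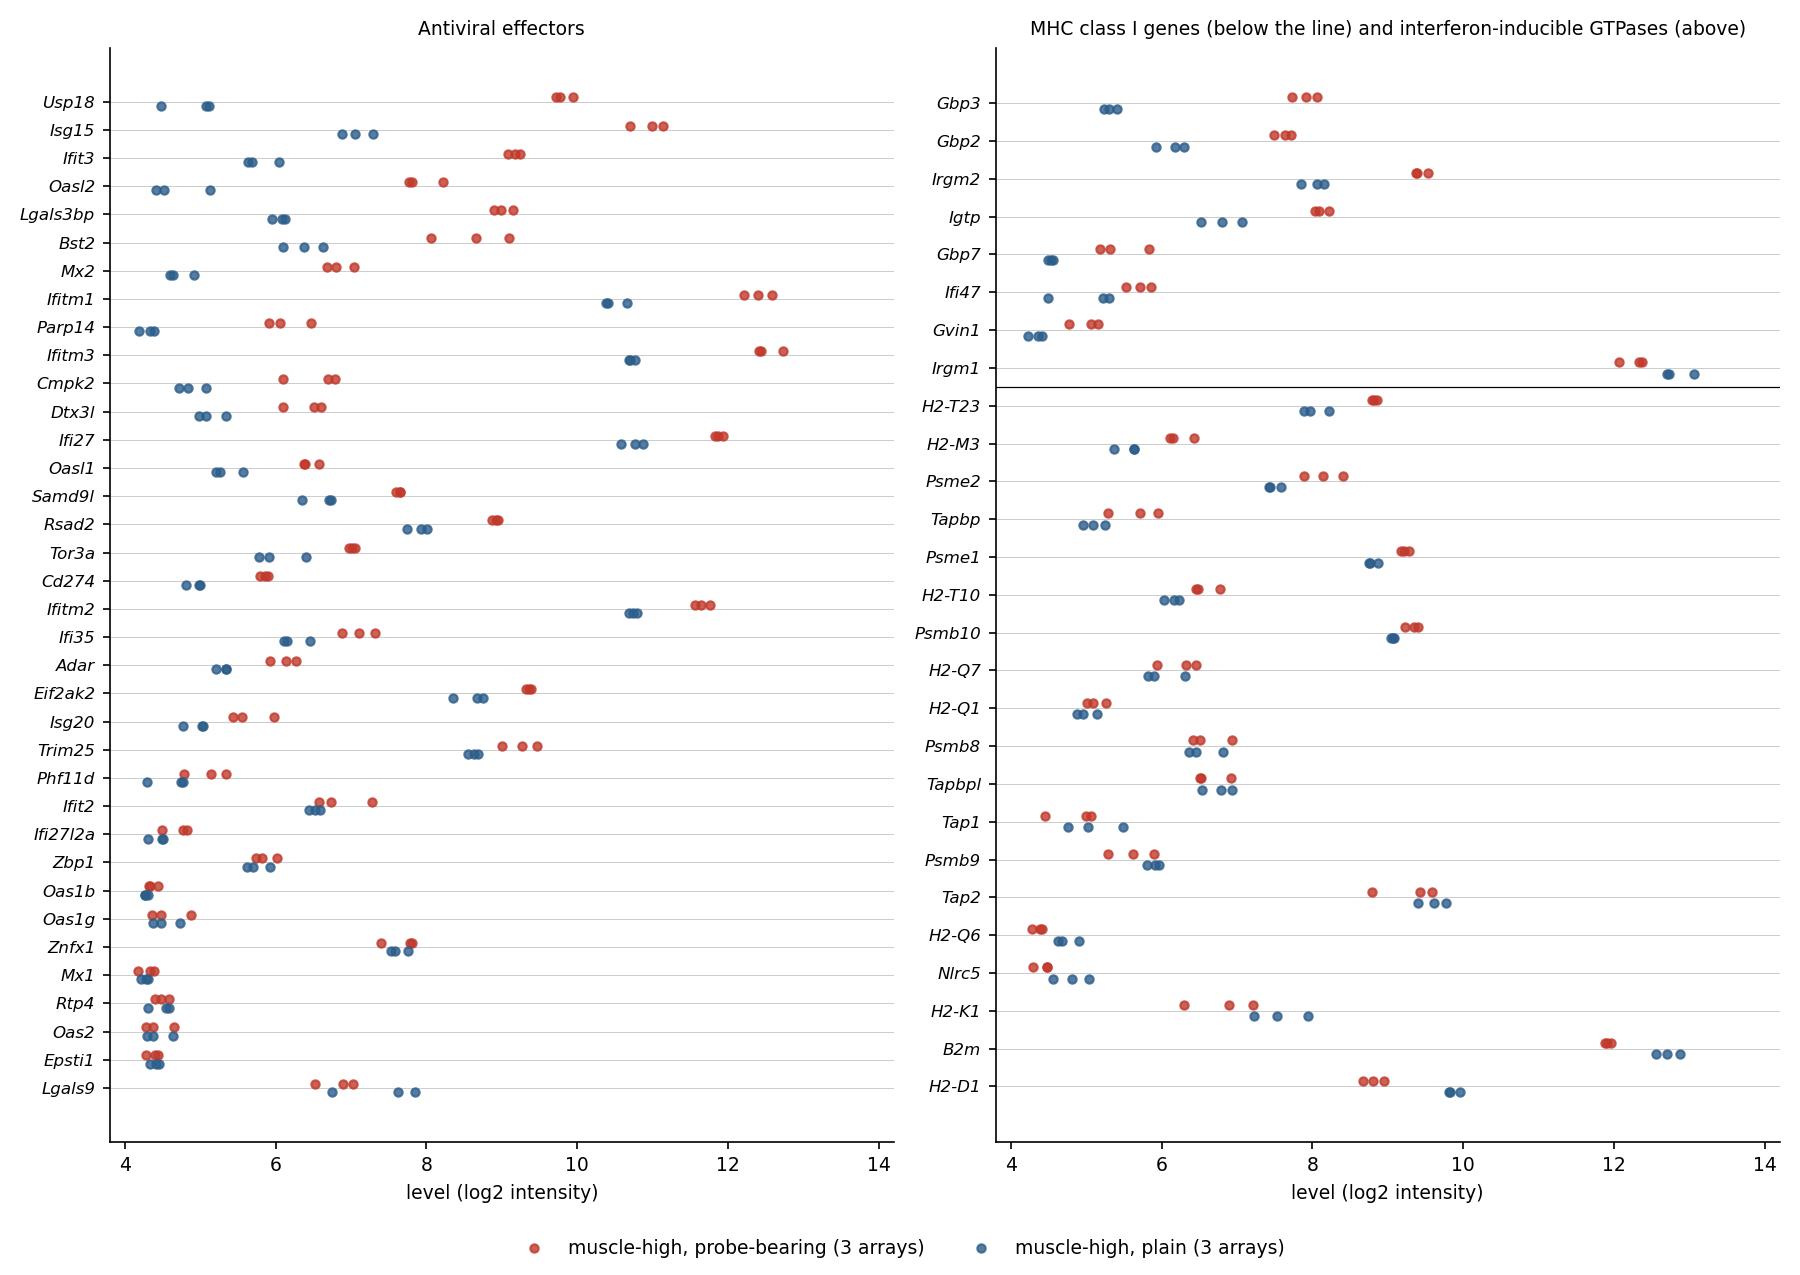
Points are log2 intensities (horizontal axis) of the 36 measured antiviral effectors (left) and of the 8 GTPases and 19 MHC class I and antigen processing genes (right), with the 3 probe-bearing arrays in red above the 3 plain arrays in blue in each row. The antiviral genes at the top have gaps between the sides of up to 4.61, for Usp18, whereas B2m and H2-D1 at the foot of the right panel lie lower in red.

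Chemokines and other inflammatory genes split into both directions, with 3 higher (10.7%) and 4 lower (14.3%) of 28 measured. Cxcl12, which guides cells bearing CXCR4, had 9.79, 9.73 and 9.71, against 6.56, 6.74 and 6.85, and all 3 of its probes differed by at least 2.55. Ccl2, a monocyte attractant, had 8.78, 9.02 and 8.79, against 7.72, 7.28 and 7.30. Ccl8, named after its values were seen, was not detected on the plain arrays and was at least 1.56-fold higher. Cxcl1, a neutrophil attractant, was lower at 10.67, 10.46 and 10.56, against 11.99, 12.19 and 12.22. The adhesion molecule Icam1 had 5.05, 5.13 and 4.62, against 6.45, 6.30 and 6.47. Saa3, an acute phase protein, had 8.74, 8.85 and 8.90, against 10.39, 9.82 and 10.16, and the iron-binding defence protein Lcn2 was at least 2.08-fold lower, with a difference of -1.44 that was -0.11 against the other plain muscle-high arrays. Serping1, an inhibitor of the complement enzyme C1, was the higher gene of 8 in its list, at 9.19, 9.30 and 9.41, against 7.70, 7.41 and 7.59. Ccl2 and Serping1 differed by more, 2.56 and 2.71, against the other plain muscle-high arrays.

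The direction of Cxcl1, Saa3 and Fas depends on which plain arrays stand on the other side. Cxcl1, between 10.46 and 10.67 on the probe-bearing arrays, lay between 9.26 and 9.52 on the other plain muscle-high arrays. Saa3, between 8.74 and 8.90 on the probe-bearing arrays, lay there between 7.36 and 7.54. Fas, a death receptor and p53 target, had 7.93, 7.63 and 7.56 on the probe-bearing arrays, against 8.55, 8.91 and 8.85 on the plain arrays and 7.34 to 7.51 on the other plain ones. All 3 genes were thus lower against one plain set. Against the other, Cxcl1 and Saa3 were higher by 1.14 and 1.40, while Fas lay above it by 0.28, short of the 2-fold rule. Isg15, between 6.52 and 6.63 on those arrays, and Usp18, between 5.23 and 5.38, lay below the probe-bearing side as they did on the plain side. The median difference of the antiviral list was 0.90 against them and that of the chemokine list 0.56.

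The contractile program was nearly level between the sides. Of 35 measured sarcomere genes 1 was higher and 1 lower, with a median of 0.07, and their mean level lay between 11.19 and 11.28 on the probe-bearing arrays and between 11.14 and 11.22 on the plain arrays. Ckm differed by 0.08. Acta1, the skeletal actin, had 14.59, 14.21 and 14.50, against 14.32, 14.62 and 14.56, and Myh8, the perinatal myosin, 14.00, 14.44 and 13.99, against 14.40, 14.32 and 14.40. Both were named after their values were seen. Myh7, the slow myosin, was the higher member, at 6.42, 6.11 and 6.21, against 5.01, 4.68 and 4.97. Myh4, a fast myosin, was lower at 6.31, 7.25 and 7.40, against 8.72, 7.76 and 7.70, a difference of -1.07 that becomes -0.50 with medians. None of the 14 genes of the acetylcholine receptor and synapse list was counted either way.

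Of 29 measured genes for excitation coupling and muscle metabolism, 2 were higher and 1 lower. Casq1, the calcium store protein of fast fibres, had 8.96, 9.37 and 9.52, against 8.09, 7.35 and 7.74. Pvalb, the calcium buffer parvalbumin, had 11.25, 11.16 and 11.17, against 9.61, 9.81 and 9.92, and its difference was 0.74 against the other plain muscle-high arrays. Ckmt2, the mitochondrial creatine kinase, was the lower one, at 10.34, 10.01 and 10.12, against 11.39, 11.51 and 11.53. Asb2, a ubiquitin ligase subunit of muscle, was higher at 10.77, 11.20 and 11.19, against 9.76, 9.43 and 9.82, a difference of 1.38 that was 0.91 against the other plain arrays.

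Regulators of the myogenic program were lower in 2 of 24 cases (8.33%) and higher in 0. Vgll2, a cofactor of TEAD transcription factors in muscle, had 9.11, 8.95 and 9.20, against 11.16, 11 and 11.09, and its 3 probes differed by -2.10 to -2.0. Cdkn1c, the imprinted cell cycle inhibitor p57, had 10.67, 10.81 and 10.81, against 12.41, 12.45 and 12.46, and differed by -2.66 against the other plain muscle-high arrays. Myod1 and Myog, central regulators of the lineage, differed by -0.50 and 0.24. Myog and the fusion protein gene Mymk were named after their values were seen, and Mymk had 11.04, 11.23 and 11.21, against 11.08, 11.04 and 10.96. Of 33 cell cycle genes 0 were higher and 0 lower, and Top2a had 5.57, 5.45 and 5.14, against 5.15, 5.17 and 5.27.

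Eef1a2 was the gene with the largest negative difference. It encodes the translation elongation factor that replaces its ubiquitous relative in mature muscle and neurons. Its levels were 5.32, 5.33 and 5.28 on the probe-bearing arrays, against 8.81, 8.88 and 8.80 on the plain arrays, a difference of -3.52. On the other plain muscle-high arrays it lay between 9.45 and 9.69, and on the 9 dividing arrays at or below 5.38, so the probe-bearing arrays sat with the dividing ones for this gene. Its 3 probes differed by -3.52 to -1.57. Hpgd, which inactivates prostaglandins, followed with 6.16, 5.81 and 5.57, against 8.93, 9.12 and 8.96, and with 9.88 to 10.03 on the other plain arrays.

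Scinderin showed the opposite arrangement. Scin, a calcium-dependent relative of gelsolin that severs actin filaments, had 9.91, 9.99 and 10.02, against 5.10, 4.90 and 5.04, a difference of 4.96 or 31.1-fold. It lay between 8.99 and 9.28 on the dividing probe-bearing arrays and at or below 5.18 on the 12 arrays without the probe. Scin thus followed the unnamed probes and not the muscle state.

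Several genes for surface proteins and for other proteins were higher on the probe-bearing arrays. P2rx2, an ion channel opened by extracellular ATP, had 8.08, 7.58 and 7.94 and was at least 8.80-fold higher. Ncf4, a subunit of the phagocyte NADPH oxidase, had 7.89, 7.53 and 7.80 and was at least 8.05-fold higher. Cd93, a lectin-like receptor of endothelial and myeloid cells, had 7.27, 7.14 and 7.10 and was at least 5.43-fold higher. None of these 3 genes was detected on a plain array. Cd34, a sialomucin of progenitor and endothelial cells that also marks muscle stem cells, had 6.88, 7.60 and 7.76, against 4.44, 4.38 and 4.75. Spink4, a protease inhibitor gene, had 7.92, 7.86 and 8.26, against 5.38, 5.01 and 5.56.

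Among the lower genes were receptors and transporters. Slc1a3, a glutamate transporter, was not detected on any probe-bearing array and had 7.01, 7.21 and 7.46 on the plain arrays, so it was at least 5.67-fold lower. Avpr1a, a vasopressin receptor, had 5.79, 5.79 and 5.94, against 8.59, 8.73 and 8.68. Cd40, a receptor of the tumour necrosis factor family, had 6.01, 5.90 and 5.67, against 8.04, 8.38 and 8.28, with its 4 probes ranging from -2.37 to -0.23. The membrane transporter Svop had 6.21, 6.0 and 6.34, against 8.87, 8.29 and 8.45. Against the other plain muscle-high arrays Avpr1a differed by -1.68 and Svop by -1.34. Slc1a3 was also low, between 5.01 and 5.15, on the other plain muscle-high arrays, so among muscle-high arrays its high level was found on the 3 plain arrays compared here.

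Enzymes, secreted proteins and regulators completed the lower end. Isl1, a LIM homeobox transcription factor, had 6.36, 5.90 and 6.0, against 8.77, 8.90 and 8.98. Ptx3, a secreted pattern recognition protein, had 5.11, 5.48 and 5.19, against 7.72, 7.77 and 7.67, a difference of -2.46 that was -0.52 against the other plain muscle-high arrays. Alox12, an arachidonate lipoxygenase, had 4.61, 4.68 and 5.21, against 7.36, 7.05 and 7.44. The galactosyltransferase gene B3galt5 had 4.64, 5.08 and 4.90, against 7.57, 7.65 and 7.71. Sncg, Snhg11, Aard and 2210409E12Rik differed by -2.26, -2.22, -2.80 and -2.93, and Snhg11 by -0.72 against the other plain arrays, where Alox12 differed by -3.73.

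**Figure D3:**
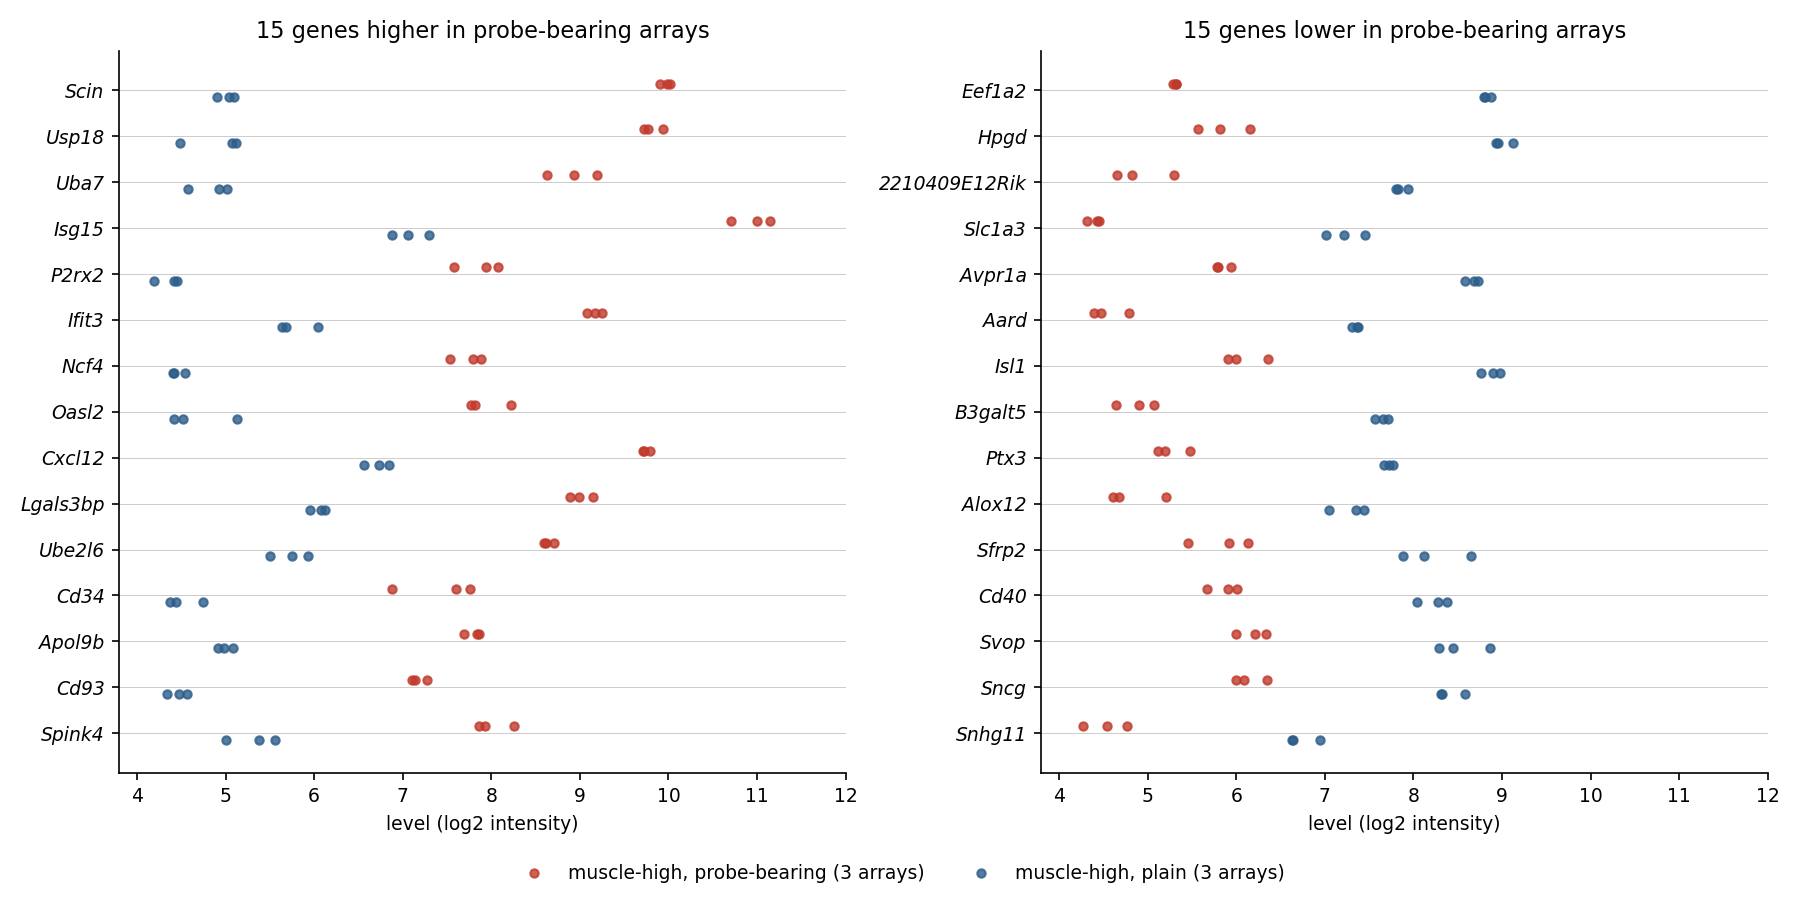
The horizontal axis is log2 intensity, and each row holds 1 gene with 3 probe-bearing arrays (red) above 3 plain arrays (blue), for the 15 genes with the largest difference in each direction. Genes were drawn only where the ranges of the sides did not overlap, and the gap is 4.81 for Scin and 3.48 for Eef1a2.

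Growth signals were mostly lower or level. Of 17 genes of the insulin-like growth factor axis and imprinted growth genes, 3 (17.6%) were lower and 0 higher, with a median of -0.53. Dlk1, an imprinted Notch-like ligand, had 5.99, 5.63 and 5.67, against 7.60, 7.73 and 7.81, though its second probe differed by -0.34. Igfbp2, a binding protein for insulin-like growth factors, had 8.51, 8.08 and 8.38, against 10.23, 10.20 and 10.15. Cdkn1c was the third. Igfbp5, another binding protein, was abundant and went the other way, at 14.30, 14.28 and 14.29, against 13.61, 13.81 and 13.55.

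Morphogens and angiogenic ligands followed no common direction. Bmp4, a bone morphogenetic protein, had 5.95, 6.06 and 5.52, against 7.85, 7.87 and 8.0. Its target genes Id1, Id2 and Id3 had smaller differences of -0.95, -0.86 and -0.91. Sfrp2, a secreted Wnt inhibitor, had 5.45, 6.13 and 5.92, against 8.65, 8.12 and 7.88, and Rspo3, which strengthens Wnt signals, had 6.43, 6.59 and 6.61, against 8.08, 8.13 and 8.06. Mdk, the growth factor midkine, had 6.98, 6.80 and 6.99, against 8.90, 8.94 and 9.16, with 4 probes from -2.08 to -0.34, and its difference was -0.40 against the other plain muscle-high arrays. Against those arrays Bmp4 differed by -1.13, Sfrp2 by -1.42 and Rspo3 by -1.0. Tek, the angiopoietin receptor, was higher at 7.40, 7.40 and 6.89, against 4.58, 4.71 and 4.86, while its ligand Angpt2 was lower at 4.85, 4.70 and 4.96, against 6.44, 6.43 and 6.42. Hbegf, a ligand of the epidermal growth factor receptor, was higher by 1.15, and Tgfbi, a matrix protein induced by transforming growth factor beta, by 1.10.

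Matrix genes numbered 3 higher (7.89%) and 5 lower (13.2%) among 38 measured. Timp1, an inhibitor of matrix proteases, had 13.13, 13.26 and 13.24, against 11.46, 11.33 and 11.44. Col8a1, a short-chain collagen, had 7.21, 7.29 and 7.26, against 9.59, 9.31 and 9.14. The proteases Mmp3 and Mmp13 differed by -1.60 and -1.61, and fibronectin, Fn1, by -1.31. Probes disagreed in size for Mmp13, from -1.61 to -0.13, and for Fn1, from -1.31 to -0.08. Against the other plain muscle-high arrays the differences of Col8a1, Mmp3 and Fn1 were -0.91, -0.82 and -0.83.

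Of 23 p53 target genes 0 were higher and 4 (17.4%) lower, with a median of -0.56. Ddit4, an inhibitor of mTOR signalling, had 7.96, 8.36 and 8.53, against 9.76, 9.37 and 9.56, while Cdkn1a, the p21 inhibitor, named after its values were seen, differed by -0.22. Of 24 genes of glycolysis and hypoxia 0 were higher and 4 (16.7%) lower, and 22 had a negative difference. Pfkp, the platelet form of phosphofructokinase, had 7.89, 7.65 and 7.82, against 9.25, 9.56 and 9.50. Against the other plain muscle-high arrays the medians were -0.21 for p53 targets and 0.01 for glycolysis and hypoxia. Ddit4 differed by -0.84 and Pfkp by -0.71 against those arrays. Of 28 heat shock and oxidative stress genes 0 were higher and 2 lower, and of 24 genes of the unfolded protein and integrated stress response 0 were higher and 1 lower, with medians of -0.08 and 0.15. The antioxidant enzyme Gpx3 differed by -1.31 and the haem-degrading enzyme Hmox1 by -1.13. Cholesterol synthesis enzymes had a positive difference in 16 of 18 cases, with 0 counted as higher and a median of 0.36. Respiratory chain subunits (31 measured) and cytosolic ribosomal proteins (22 measured) held 0 higher and 0 lower genes, with medians of -0.05 and 0.11.

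Immediate early genes, which respond within minutes to signals, included 1 higher gene of 19. Egr3 had 9.02, 9.05 and 8.97, against 6.85, 6.90 and 6.85, but its second probe differed by 0.04. Angptl4, a secreted lipase inhibitor, was the higher one of 18 lipid genes, at 9.12, 9.34 and 9.41, against 7.63, 7.52 and 7.81, and its second probe differed by 0.07.

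**Figure D4:**
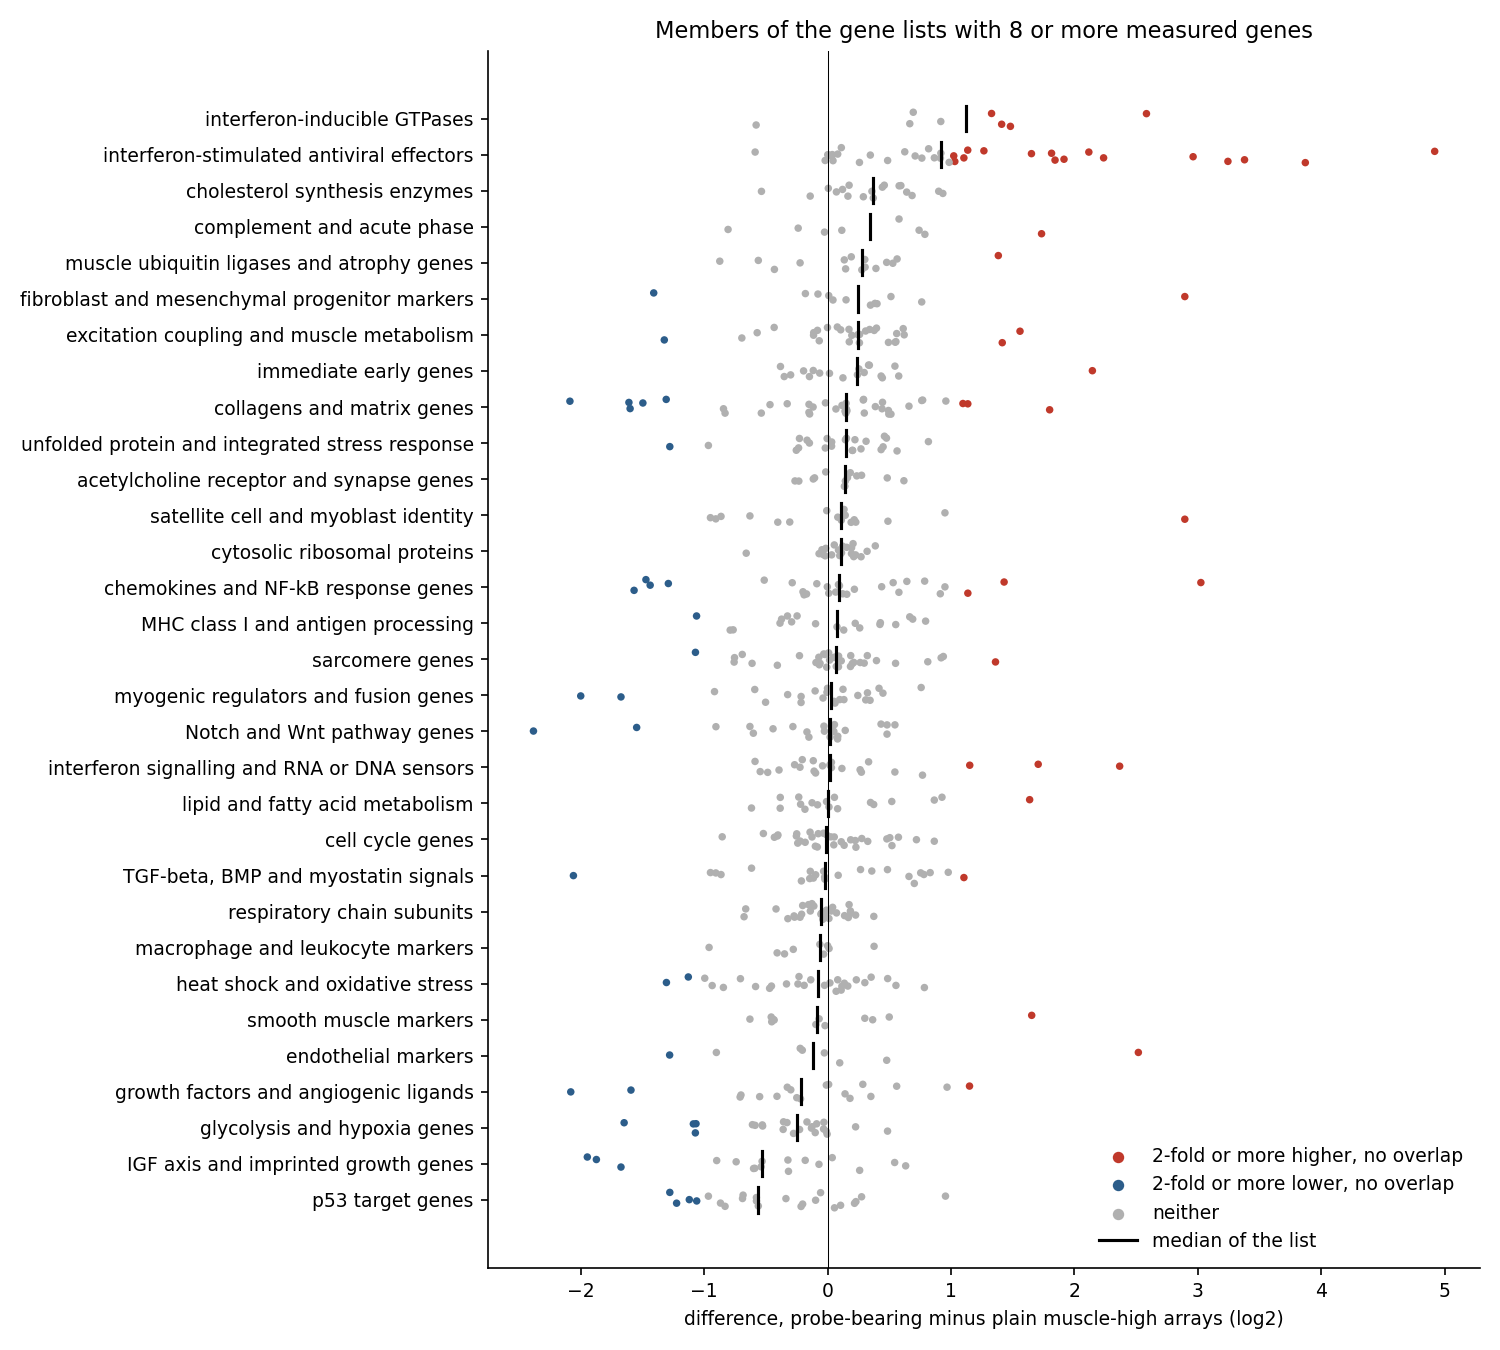
Each point is the difference of 1 gene (probe-bearing minus plain muscle-high arrays, log2, horizontal axis), in rows for the gene lists with at least 8 measured members, ordered by their median (black line). The antiviral effectors and GTPases have medians of 0.92 and 1.12, the sarcomere and cell cycle lists lie around 0, and the p53 target genes have a median of -0.56.

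Markers of other cell types were measured beside these genes, and their part in the differences was not tested. In bulk cultures, fewer cells of a type and less RNA per cell cannot be told apart. The mean of 9 macrophage and leukocyte markers lay between 5.00 and 5.04 on the probe-bearing arrays and between 5.13 and 5.29 on the plain arrays, with 0 higher and 0 lower. Of 8 endothelial markers 1 was higher, Tek, and 1 lower, Cldn5 (at least 2.27-fold), and their mean lay between 5.13 and 5.22, against 5.03 to 5.17. Pecam1 and Kdr, which define endothelial cells, were not detected on any probe-bearing array and on at most 2 plain arrays. Of 12 fibroblast and mesenchymal progenitor markers 1 was higher, Cd34, and 1 lower, Twist2, with means between 7.57 and 7.82, against 7.36 to 7.44. Of 12 smooth muscle markers 1 was higher, Rgs5, a regulator of G protein signals in pericytes, at 7.37, 7.07 and 7.22, against 5.40, 5.58 and 5.72. Twist2 differed by -1.41, and by -0.77 against the other plain muscle-high arrays. The 3 measured glial and neuronal markers had means between 5.44 and 5.49, against 4.76 to 4.91, with Mbp, a myelin protein, higher by 1.05, although its 3 probes ranged from -0.22 to 1.05. The 6 measured cardiac genes had means between 6.64 and 6.88, against 6.26 to 6.31, with the natriuretic peptide gene Nppb higher, at least 2.45-fold, with a difference of 1.56 that was 0.98 against the other plain arrays. The means of the sides did not overlap for either list. Such separation was common, since ranges did not overlap, at any size of difference, for 2084 higher and 2369 lower of 11921 genes. Of these lists, 1 of 3 glial and neuronal markers and 2 of 6 cardiac genes were detected on all 6 arrays. Of 17 satellite cell and myoblast genes 1 was higher, Cd34, and 0 lower.

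The dividing arrays hold a comparison of the same kind that shares no array with the first. OE day 0 replicates 1 and 3 and OE day 3 replicate 2 carry the unnamed probes. Wt day 0 replicates 2 and 3 and OE day 3 replicate 3 are plain. The other dividing arrays without the probe, KO day 0 replicates 2 and 3 and Wt day 3 replicate 2, were left out. They were set apart as interferon-high by their Usp18 level, which lay between 12.40 and 12.52. In this comparison 252 genes were higher and 87 lower on the probe-bearing arrays, 2.11% and 0.73% of genes. Of these, 76 were higher in both comparisons, which is 34.4% of the genes higher among muscle-high arrays and 30.2% of those higher among dividing arrays. In both comparisons 31 were lower, 11.5% and 35.6% of each. The arrays were normalised together, and the same probe set the sides of both comparisons. Closeness of arrays also set both plain sides, and Usp18 the dividing one, so these shares are a description.

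Genes higher in both comparisons included Scin, P2rx2, Ncf4, Cd34, Cd93, Tek, Rgs5, Timp1, Angptl4, Uba7 and Ube2l6. P2rx2 lay between 6.49 and 7.08 on the dividing probe-bearing arrays and between 4.26 and 4.42 on the dividing plain arrays. Tek lay between 7.31 and 7.49, against 4.69 to 5.32, and Rgs5 between 9.12 and 9.25, against 4.69 to 5.06. Lower in both were Isl1, Ptx3, Sfrp2, Col8a1, Angpt2 and H2-D1 among others. Isl1 lay between 5.21 and 5.89 on the dividing probe-bearing arrays, against 6.65 to 6.82 on the dividing plain arrays.

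A group of interferon-stimulated genes went the opposite way in dividing cultures. In all, 10 genes were higher among muscle-high arrays and lower among dividing arrays: Apol9a, Cmpk2, Gbp2, Gbp3, Ifit3, Isg15, Oasl1, Oasl2, Rsad2 and Samd9l. All 10 are interferon-stimulated. Isg15 lay between 6.08 and 6.73 on the dividing probe-bearing arrays, against 8.78 to 9.15 on the dividing plain arrays, and Ifit3 between 5.54 and 5.77, against 6.87 to 7.36. Usp18 lay between 4.27 and 4.77, against 4.96 to 5.43, but low Usp18 was part of the choice of the dividing plain arrays. The ISG15 system was therefore split: Uba7 lay between 6.88 and 7.05 on the dividing probe-bearing arrays, against 5.01 to 5.72, and Ube2l6 between 6.33 and 6.80, against 5.26 to 5.73. Both conjugation enzymes were higher with the probe than on the plain arrays compared, in either state. Isg15 was higher with the probe among muscle-high arrays alone. On the interferon-high dividing arrays, left out of this comparison, both enzymes lay above the dividing probe-bearing arrays.

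In the opposite corner were 5 genes that were lower among muscle-high and higher among dividing probe-bearing arrays: Gsta1, Igfbp2, Mgarp, Nnat and Stc1. Igfbp2 lay between 9.32 and 9.53 on the dividing probe-bearing arrays, against 7.71 to 7.91 on the dividing plain arrays. Cxcl12, 3.02 higher among muscle-high arrays, lay between 10.29 and 10.48, against 10.71 to 11.07, on the dividing ones. Its level on the muscle-high probe-bearing arrays was thus nearer to that of dividing cultures than to that of plain muscle-high cultures.

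**Figure D5:**
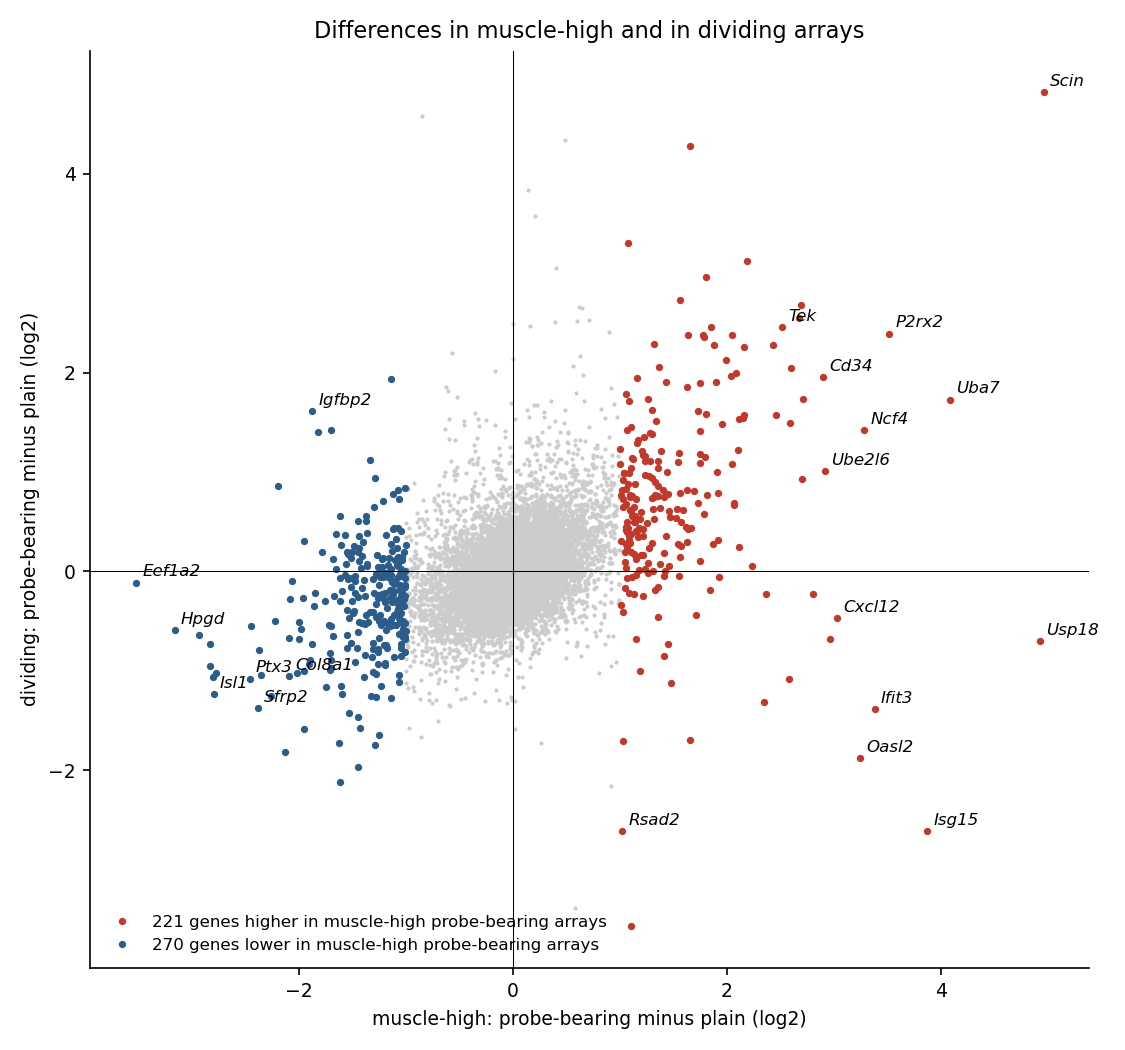
Each point is a gene, with its difference on muscle-high arrays (horizontal axis, log2, probe-bearing minus plain) and on dividing arrays (vertical axis, same scale), in red for the 221 higher and in blue for the 270 lower genes of the muscle-high comparison. Scin, P2rx2 and Tek lie high on both axes, whereas Isg15, Ifit3 and Oasl2 lie to the right but below 0.

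The highest levels of interferon-stimulated genes were on other arrays. KO day 0 replicates 2 and 3 and Wt day 3 replicate 2, which are dividing and lack the probe, were set apart by high Usp18. These arrays had Isg15 between 12.69 and 12.83, Irf7 between 8.59 and 8.85, and Gbp3 between 10.33 and 10.47. The probe-bearing muscle-high arrays stood between these and the plain arrays for Isg15, Irf7 and Gbp3. For Uba7 they did not: it had 8.63, 9.20 and 8.94 on the probe-bearing arrays, against 8.02 to 8.49 on the interferon-high dividing arrays. Ube2l6 was likewise at 8.70, 8.59 and 8.62, against 7.96 to 8.36. Scin, P2rx2 and Ncf4 stayed at or below 4.84 on the interferon-high arrays.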

How the data were processed

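RNA from cultured myoblasts was hybridised to Illumina MouseWG-6 bead arrays. The non-normalised table that the authors deposited holds, per the file headers, 1 intensity (linear, no background removed) and 1 detection p-value per array for 45281 probes on 18 arrays. The authors also deposited processed intensities, and how these were normalised is not given in the sources used. Detection p-value steps in the deposited table correspond to 936 negative control probes. Array titles gave the labels.

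Background was corrected with limma 3.58.1 in R 4.3.3 by neqc (offset 16, background inferred from the detection p-values, quantile normalisation over all 18 arrays). Detection (p-value under 0.05) on 3 or more arrays was required of a probe, which kept 22365. Symbols came from the platform annotation, of which 34807 of 34885 single-symbol probes were matched by identifier to RefSeq GRCm38.p6. A further 18 probes had several symbols and 10378 had none. The brightest probe stood for each of 11921 genes.

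Sides were compared by the difference of mean log2 levels and by whether ranges overlapped, with no test, since the sides were set by measured values. The genes named are the 15 with the largest difference each way without overlap, Gata4, Ckm and Top2a, and up to 6 members of each of 36 lists with the largest difference. Others are said to be named after their values were seen, or are the genes counted in a list or an overlap. The arrays, members and lists were chosen with earlier results of these data known. The difference calculation was checked on simulated data. Precision is limited by the number of arrays.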

Additional observations from a re-analysis of the deposited data

How the results depend on the processing

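The counts of higher and lower genes depended most on background handling and on the size required. They were 106 and 94 with normexp fitted on the signals, 74 and 63 with no background correction and 71 and 64 with the authors' processed values, against 221 and 270. Under these 3 settings 32, 51 and 56 of 86 named genes moved by over 1.5 times, all to smaller differences of the same sign. The difference of Usp18 was 3.64, 3.13 and 3.04 under them, against 4.92. The cause was not tested. Signal over background limits probes that were not detected on a side, for which bounds are given. These bounds hold for the main processing alone. The difference of P2rx2 was 1.69 with no background correction and 1.60 with the authors' processed values, against 3.51. A required difference of 1.5-fold gave 711 and 842, and 4-fold gave 39 and 23. The median of the antiviral effectors was 0.63, 0.51 and 0.47 under the same 3 settings and 0.81 with the mean of all probes of a gene, against 0.92. Other normalisations, detection filters, medians and the mean of all probes gave 191 to 240 higher and 217 to 282 lower genes, and the other plain muscle-high arrays gave 310 and 367. Leaving out each array in turn gave 218 to 234 higher and 261 to 301 lower genes and an antiviral median of 0.90 to 0.95. With the other plain muscle-high arrays the differences of Cxcl1, Saa3 and Fas turned to 1.14, 1.40 and 0.28, and with all 6 plain arrays that of Saa3 turned to 0.056. The cause of these reversals was not tested. The other 83 of 86 named genes that were counted as higher or lower kept their direction with the other plain arrays, where 34 of 86 moved by over 1.5 times, and all 86 kept it under the remaining settings but the pooled one, where 85 did. Arrays titled day 0 alone gave 254 and 279, and those titled day 3 alone 288 and 339, an alternative chosen after seeing the data. No paired analysis was possible because the sides share a single replicate number, 1, which occurs more than once on each side.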

Other observations

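Probes of the same gene did not always tell the same story near the interferon pathway. A second probe of Ifitm1, chosen after its values were seen, differed by 4.97, against 1.92 for the brightest. Irgm1 had probes from -0.58 to 1.69, and H2-T23 from 0.79 to 1.27, where the brightest probe was the lowest. Among placental prolactin relatives, Prl2c2, Prl2c3 and Prl2c4 were all higher on the probe-bearing arrays in both muscle-high and dividing cultures, but their sequences are nearly identical and the probes may read the same transcript.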
